A study of Mus musculus with 4 samples.

Results

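The 10 genes described here carry out antigen presentation by major histocompatibility complex (MHC) class I. They were taken by symbol from the 31053 genes of the count matrix. They were the classical heavy chains H2-K1 and H2-D1, the nonclassical heavy chains H2-T23 and H2-Q7, the light chain B2m, the peptide transport and loading genes Tap1, Tap2, Tapbp and Erap1, and the transactivator Nlrc5. The study profiled single splenic B cells of wild-type mice (C57BL/6) that were purified by negative selection and cultured for 3 days with CpG B ODN, a Toll-like receptor 9 ligand, in 2 Bregs-CpG samples. In the 2 Bregs-TLR samples LPS, PMA and ionomycin were added for the last 5 hours of the same culture, so all 4 samples had received CpG. How many mice gave each sample, and whether they were pooled, is not given in the sources used here. The barcodes carried 4 endings, 5 to 8, each called a library below, and no label tied an ending to a sample. Each library is therefore given as its own value, and no test between Bregs-CpG and Bregs-TLR was made.

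Class I molecules display peptides from inside the cell to CD8 T cells and are engaged by receptors of NK cells. Proteasomes cut proteins into peptides, the Tap1 and Tap2 transporter carries these into the endoplasmic reticulum, Erap1 trims them, and tapasin (Tapbp) holds the empty heavy chain with its B2m light chain at the transporter until a peptide fits. Nlrc5 switches on class I genes from the W/S, X and Y elements of their promoters, while interferon regulatory factors and NF-kB act on the neighbouring interferon and kappaB elements.

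After filtering for at least 1000 genes and under 10% mitochondrial UMIs (unique molecular identifiers, each standing for 1 captured transcript), 18534 of 19920 barcodes remained, with 4196, 4714, 5621 and 4003 cells in libraries 5, 6, 7 and 8. Median depth was 8752 to 10355 UMIs per cell and each library held 44842982 to 63638158 UMIs. The median mitochondrial share was 7.22% and 7.18% in libraries 5 and 6 and 4.61% and 4.65% in libraries 7 and 8. Any pair of libraries shared between 1 and 8 barcodes. The 6 B cell markers were detected in every library, with a summed level of 7196, 7463, 1536 and 1529 CPM (counts, here UMIs, per 1000000 UMIs of the library) in libraries 5 to 8. The lists for T cells (Cd3e, Cd4 and Cd8a at 0), myeloid cells (Lyz2, S100a8 and S100a9 at 0), dendritic cells (Siglech at 0) and NK cells (Ncr1 and Klrb1c at 0) each summed to at most 5.48 CPM. The 4 red cell genes summed to 4.59, 4.30, 219 and 285, almost all from Hbb-bt, with Hba-a1 and Hba-a2 at 0. The part of the mitochondrial share and of the red cell genes in the differences below was not tested.

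In GENCODE M21 (GRCm38), 7 of the genes lie in the H2 complex on chromosome 17, from Tapbp (33915899-33929292, plus strand) and H2-K1 (33996017-34000347, minus) through Tap1 (34187553-34197225, plus), Tap2 (34203527-34216321, plus), H2-D1 (35262730-35267499, plus) and H2-Q7 (35439155-35443773, plus) to H2-T23 (36029773-36032855, minus). B2m lies on chromosome 2 (122147686-122153083, plus), Erap1 on 13 (74639568-74693201, plus) and Nlrc5 on 8 (94434356-94527272, plus). Upstream sequence was available from RefSeq (GRCm38.p6) for 8 of the 10 genes, Tap2 and Nlrc5 having no entry. The 250 bases before the start were searched on both strands for GGGATTCCC (a kappaB form), TTTCNNTTC and GAAANNGAA (incomplete forms of the interferon element, the latter added after the sequences were seen) and TGACG followed after 15 to 25 bases by ATTGG (the X2 and Y boxes). These motifs, which did not overlap each other in the sequences shown, occur in 0.301%, 6.31%, 7.13% and 0.381% of 32851 upstream windows of that length. H2-K1, H2-D1 and H2-Q7 held GGGATTCCC, TTTCNNTTC and the X2 and Y pair. B2m held GAAANNGAA and the X2 and Y pair, H2-T23 and Erap1 held GAAANNGAA alone, and these letters were not found in the windows of Tap1 and Tapbp. Other forms of the kappaB and interferon elements were not searched for. A missing hit is thus no sign that an element is absent, and a hit with either interferon form may lie within a fuller one. Annotated exons cover all 250 bases of the Tap1, Tapbp and Erap1 windows and 154 bases of that of H2-T23, its motif among them. Hits and absences in these windows are therefore not findings about sequence outside exons. A classical heavy chain, a nonclassical heavy chain and the light chain are shown 5′ to 3′ on the gene's own strand, with the motifs in capitals. They were chosen since they share the X2 and Y pair and were all lower in libraries 7 and 8. H2-T23 and Tap1 were also lower there, with no X2 and Y pair found in their windows. A link between motif and level was not tested. The sequences shown are chr17:34000348-34000597 (minus strand), chr17:35438905-35439154 (plus strand) and chr2:122147437-122147685 (plus strand), and no annotated exon covers them. The H2-D1 window lies within an annotated exon of a longer H2-D1 transcript and is not shown.
H2-K1: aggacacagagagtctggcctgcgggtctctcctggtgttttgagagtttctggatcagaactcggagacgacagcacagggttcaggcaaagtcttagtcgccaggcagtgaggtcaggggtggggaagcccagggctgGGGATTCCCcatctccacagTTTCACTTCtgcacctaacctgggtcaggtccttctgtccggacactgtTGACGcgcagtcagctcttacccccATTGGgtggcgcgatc
H2-Q7: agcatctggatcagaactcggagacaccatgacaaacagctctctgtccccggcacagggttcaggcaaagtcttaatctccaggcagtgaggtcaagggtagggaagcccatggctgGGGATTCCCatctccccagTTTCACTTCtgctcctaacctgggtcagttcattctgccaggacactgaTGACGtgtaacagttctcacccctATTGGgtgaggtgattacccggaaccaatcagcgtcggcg
B2m: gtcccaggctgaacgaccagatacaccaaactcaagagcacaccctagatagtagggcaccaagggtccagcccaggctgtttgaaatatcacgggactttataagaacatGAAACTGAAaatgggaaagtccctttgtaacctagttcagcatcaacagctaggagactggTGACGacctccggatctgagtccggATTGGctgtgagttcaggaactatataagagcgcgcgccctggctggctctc

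In the 4 cross pairs, which set library 7 or 8 against 5 or 6, the ratios of the classical heavy chains H2-K1 and H2-D1 lay further from each other than from those of the nonclassical ones. H2-K1, the K molecule of the mouse, stood at 535 (95% interval 528 to 542), 575 (568 to 582), 418 (413 to 423) and 391 (385 to 397) CPM in libraries 5, 6, 7 and 8. H2-D1, the D molecule, stood at 490.4 (484 to 497), 522 (515 to 528), 257 (253 to 261) and 237 (233 to 242). Both were lower in libraries 7 and 8 than in libraries 5 and 6 with no overlap, and H2-D1 by more. The share of all genes without such overlap is not given here. In the cross pairs, 26.1% to 29.7% of all genes tested had a ratio at or below that of H2-K1. For H2-D1 this was 14.2% to 16.3%. The log2 ratio of H2-K1 was -0.36 (-0.38 to -0.33) for library 7 over 5, -0.45 (-0.48 to -0.42) for 8 over 5, -0.46 (-0.48 to -0.44) for 7 over 6 and -0.56 (-0.58 to -0.53) for 8 over 6. That of H2-D1 was -0.93 (-0.96 to -0.90), -1.05 (-1.08 to -1.01), -1.02 (-1.05 to -0.99) and -1.14 (-1.17 to -1.10) in the same order. For each UMI of H2-D1 there were 1.09 and 1.10 UMIs of H2-K1 in libraries 5 and 6, and 1.63 and 1.65 in libraries 7 and 8. All intervals are exact, at 95%, and cover counting error only.

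H2-T23 encodes Qa-1, which presents leader peptides of other class I molecules to NKG2A receptors. Its level was 105 (102 to 108), 103 (100.2 to 106), 56.2 (54.3 to 58.0) and 52.6 (50.5 to 54.7) CPM in libraries 5 to 8. H2-Q7 encodes Qa-2, a molecule anchored in the membrane by a lipid, and stood at 17.7 (16.5 to 19.0), 19.4 (18.2 to 20.6), 11.0 (10.2 to 11.9) and 11.5 (10.6 to 12.5). Both were lower in libraries 7 and 8 than in libraries 5 and 6, again without overlap. The share of all genes without such overlap is not given here either, so its absence only describes these genes. In the cross pairs, 15.9% to 17.9% of all genes tested had a ratio at or below that of H2-T23. For H2-Q7 this was 19.1% to 23.4%. The log2 ratios of H2-T23 for 7 over 5, 8 over 5, 7 over 6 and 8 over 6 were -0.90, -0.996, -0.87 and -0.97, close to those of H2-D1. Those of H2-Q7 were -0.69, -0.62, -0.81 and -0.75, between H2-K1 and H2-D1.

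**Figure D1:**
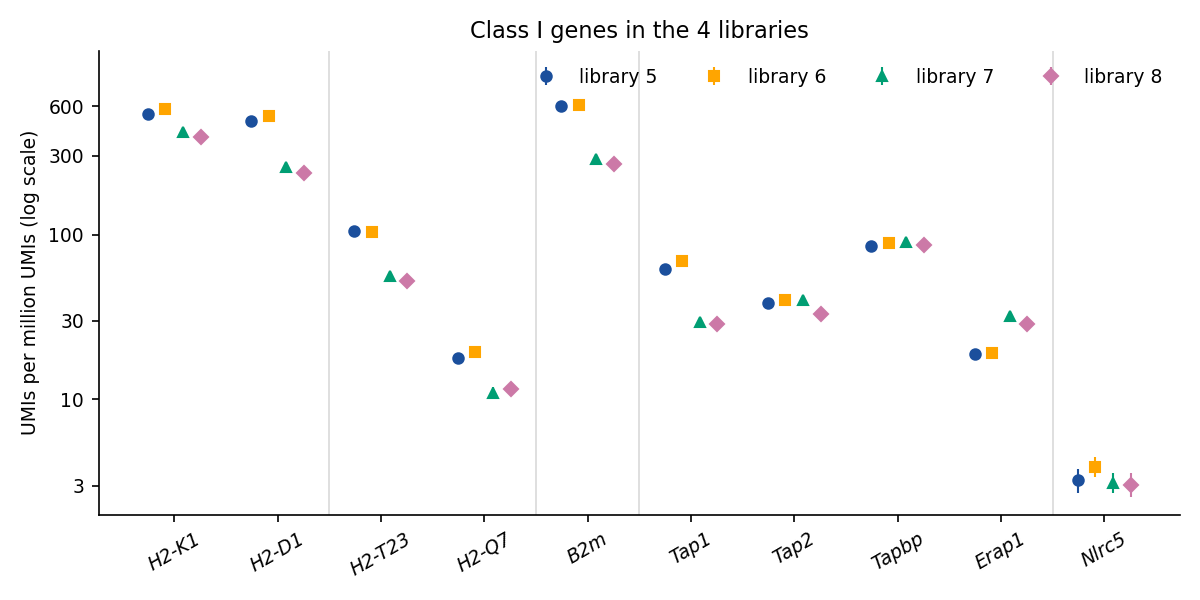
Level of each of the 10 genes in libraries 5 to 8, in CPM on a log scale, with exact Poisson 95% intervals (often smaller than the symbol) and grey lines between roles. H2-K1, H2-D1, H2-T23, H2-Q7, B2m and Tap1 lie lower in libraries 7 and 8, Erap1 lies higher there, and Tap2, Tapbp and Nlrc5 lie close together in all 4.

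The nonclassical pair made up 10.7% (10.4 to 11.0) of the UMIs of the 4 heavy chains in library 5, 10.0% (9.80 to 10.3) in library 6, 9.06% (8.80 to 9.32) in library 7 and 9.26% (8.94 to 9.58) in library 8. The share was lower in libraries 7 and 8 than in both others, and libraries 7 and 8 overlapped. Libraries 5 and 6 did not overlap either, so libraries with like levels also differed beyond counting error. Summed, the classical chains stood at 1025, 1097, 674 and 628 CPM and the nonclassical ones at 123, 122, 67.2 and 64.1. In each of the 4 pairs that set library 7 or 8 against 5 or 6, the log2 ratio of the nonclassical sum (-0.86 to -0.94) lay below that of the classical sum (-0.60 to -0.80), with intervals that did not overlap. This split did not hold gene by gene, since H2-D1 had lower ratios than either nonclassical gene in all 4 pairs, with an interval that overlapped that of H2-T23 for 7 over 5 and 8 over 5. H2-D1 gave 47.8% and 47.6% of the classical UMIs in libraries 5 and 6 and 38.1% and 37.8% in libraries 7 and 8. H2-Q7 gave 14.5%, 15.8%, 16.4% and 18.0% of the nonclassical UMIs in libraries 5 to 8.

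**Figure D2:**
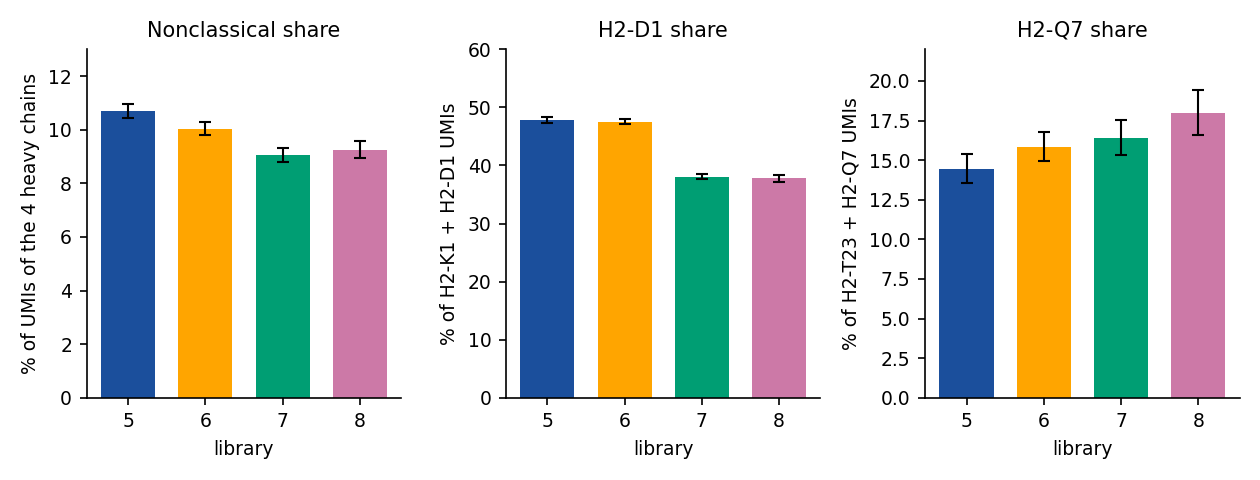
Makeup of the heavy chain UMIs in libraries 5 to 8, as the nonclassical share of all 4 heavy chains, the H2-D1 share of the classical pair and the H2-Q7 share of the nonclassical pair, in percent with exact Clopper-Pearson 95% intervals. The H2-D1 share separates libraries 5 and 6 (47.8% and 47.6%) from 7 and 8 (38.1% and 37.8%) more widely than the nonclassical share does (10.7% and 10.0% against 9.06% and 9.26%).

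Transcripts of this family share sequence, which limits how well UMIs can be given to one gene. Of the 50-base words in the last 400 bases of coding transcripts, 10.2% of those of H2-K1 and 10.1% of those of H2-D1 also occurred in transcripts of other genes, most often in each other's. For H2-Q7 this was 0.513%, but 52.0% for its neighbour H2-Q6, most often shared with H2-Q7, and 36.2% for H2-T23, most often with Rab33b. The split between H2-Q6 and H2-Q7 is therefore uncertain, mainly on the side of H2-Q6, and so is that between H2-K1 and H2-D1. The few shared words of H2-Q7 occurred in H2-Q10 alone.

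B2m encodes the light chain that pairs with class I heavy chains. Its level was 598 (590.4 to 605), 610 (603 to 616), 286 (282 to 290.5) and 268 (263 to 273) CPM in libraries 5, 6, 7 and 8. It was more than 2-fold lower in libraries 7 and 8, with log2 ratios of -1.06 (-1.09 to -1.03), -1.16 (-1.19 to -1.13), -1.09 (-1.12 to -1.06) and -1.19 (-1.22 to -1.16). The 4 heavy chains together gave 1.92 and 2.00 UMIs per B2m UMI in libraries 5 and 6, and 2.59 in both libraries 7 and 8.

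Tap1 and Tap2 form 1 transporter but did not move together. Tap1 stood at 62.0 (59.7 to 64.3), 69.0 (66.7 to 71.3), 29.3 (28.0 to 30.7) and 28.7 (27.1 to 30.3) CPM, with log2 ratios of -1.08, -1.11, -1.23 and -1.27 for 7 over 5, 8 over 5, 7 over 6 and 8 over 6. Tap2 stood at 38.4 (36.6 to 40.2), 39.8 (38.1 to 41.6), 39.9 (38.3 to 41.4) and 33.0 (31.4 to 34.7). Library 8 had less Tap2 than the other 3, which overlapped, and the log2 ratio of library 8 over 7 was -0.27 (-0.36 to -0.18). Tapbp was at 85.1, 88.2, 90.3 and 86.6 in libraries 5 to 8, and its log2 ratio ran from -0.06 to 0.09 over the 6 pairs. The sign of Tap2, Tapbp and Nlrc5 between libraries changed with the scaling: over the main value and 7 alternatives in the 4 cross pairs, 22 of 32 values of Tap2, 12 of 32 of Tapbp and 29 of 32 of Nlrc5 were below 0. In the same count, all 32 values were below 0 for H2-K1, H2-D1, H2-T23, H2-Q7, B2m and Tap1, and all 32 were above 0 for Erap1. The share of all genes that keep 1 sign in this way is not given.

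Erap1, the trimming peptidase, went the other way. Its level was 18.8 (17.5 to 20.1), 19.1 (17.9 to 20.3), 31.9 (30.5 to 33.3) and 28.8 (27.3 to 30.4) CPM in libraries 5 to 8. The log2 ratios were 0.77 (0.65 to 0.88), 0.62 (0.49 to 0.74), 0.74 (0.63 to 0.85) and 0.59 (0.47 to 0.71). In these pairs, 73.9% to 77.3% of all genes tested had a ratio at or below that of Erap1. Nlrc5 was the rarest member, with 145, 201, 198 and 139 UMIs, or 3.23 (2.73 to 3.80), 3.89 (3.37 to 4.47), 3.11 (2.69 to 3.58) and 3.04 (2.56 to 3.59) CPM. Its 4 intervals overlapped, and a difference between libraries was not detectable at this depth beyond log2 ratios of -0.32 (-0.61 to -0.03) for 7 over 6 and -0.36 (-0.68 to -0.04) for 8 over 6.

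A gene was called past 2-fold when its ratio was at least 2 and the interval left out 1. All 10 members passed the minimum of 100 UMIs over the 4 libraries. For library 7 over 5, 2 of 10 members (B2m and Tap1) were at least 2-fold lower, beside 15.2% of all genes tested, and 0 were 2-fold higher, beside 16.1%. That count of 2 was 4 with TMM scaling and 0 as UMIs per cell. For 8 over 5, 3 (B2m, Tap1 and H2-D1) were lower and 0 higher, beside 15.9% and 14.5%. The counts were also 3 and 0, of the same genes, for 7 over 6 (background 15.7% and 15.2%) and for 8 over 6 (16.4% and 13.7%). For 6 over 5 (0.134% and 0.125%) and 8 over 7 (0.537% and 0.143%) no member was called in either direction. With a 1.5-fold call, 5 members were lower in each cross pair (H2-D1, H2-T23, H2-Q7, B2m and Tap1) and 1, Erap1, was higher. Beside this, 22.9% of all genes were lower and 30% higher for 7 over 5, 24% and 27% for 8 over 5, 24% and 28.5% for 7 over 6, and 25% and 25.7% for 8 over 6. H2-T23 lay just outside the 2-fold call for 8 over 5, and H2-D1 for 7 over 5. The median log2 ratio of the 10 members was -0.52, -0.54, -0.64 and -0.65 in the 4 cross pairs, where that of all genes tested was 0.16, 0.10, 0.12 and 0.06. It was 0.07 for 6 over 5 (all genes 0.04) and -0.10 for 8 over 7 (all genes -0.06). The cross pairs share libraries and are not independent of each other.

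**Figure D3:**
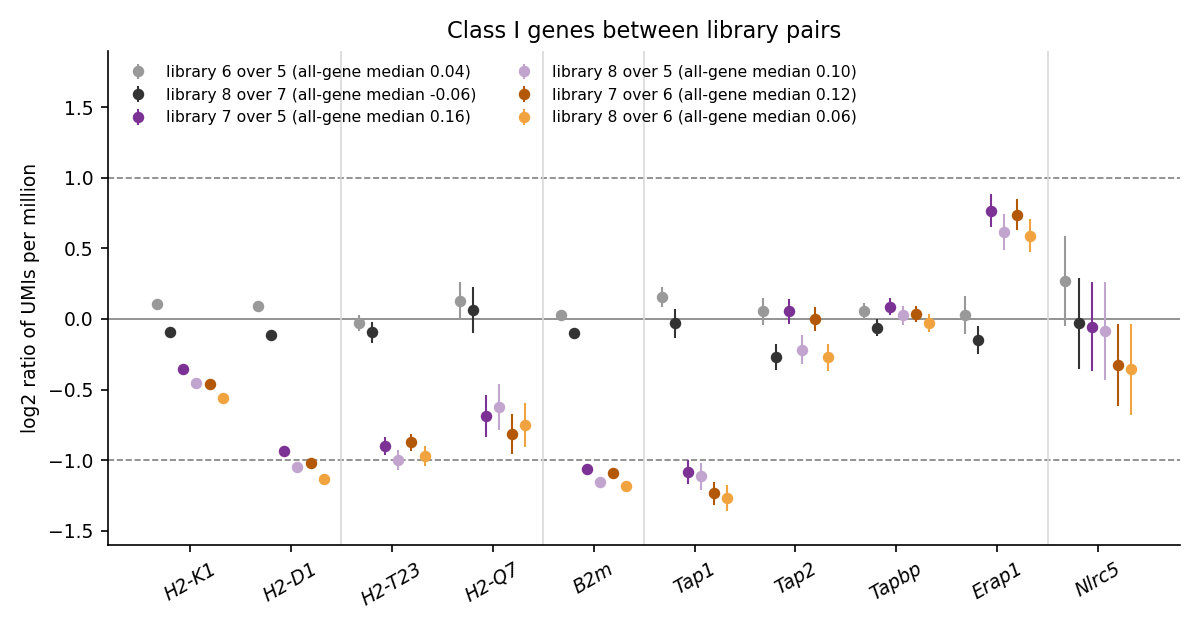
Log2 ratio of CPM for each gene in the 6 library pairs, with exact 95% intervals, the dashed lines marking 2-fold. The pairs 6 over 5 and 8 over 7 lie within 0.27 of 0 for every gene shown, while B2m and Tap1 lie beyond 2-fold lower in all 4 other pairs and Erap1 lies between 0.59 and 0.77.

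After thinning every cell to 3000 UMIs, the median cell carried 3 classical UMIs in libraries 5 and 6 (10th to 90th percentile 1 to 6) and 2 in libraries 7 and 8 (0 to 4). Cells with no classical UMI made up 6.80% (6.06 to 7.60) and 6.48% (5.79 to 7.22) of libraries 5 and 6, and 18.7% (17.7 to 19.7) and 21.4% (20.1 to 22.7) of libraries 7 and 8. Before thinning H2-K1 was seen in 96.6% and 97.2% of cells of libraries 5 and 6 and in 93.4% and 91.7% of those of libraries 7 and 8, and H2-Q7 in 13.3%, 15.1%, 10.0% and 10.2% of libraries 5 to 8. B2m was seen in 81.7%, 82.2%, 53.4% and 50.8% of thinned cells, H2-T23 in 27.3%, 27.6%, 15.3% and 14.6%, and H2-Q7 in 4.25%, 4.55%, 2.86% and 2.94%. Since all nucleated cells make class I, no cell type here could give the background of free RNA. Within a library, correlation across thinned cells was weak: Pearson's r was 0.13 to 0.16 for H2-K1 with H2-D1, 0.10 to 0.11 for H2-K1 with B2m and at most 0.04 in size for Tap1 with any heavy chain. Counts per thinned cell were low, with Tap1 seen in only 7.84% to 19.0% of them. Counting error at such counts keeps r low, so a low r does not show that 2 genes vary apart. Genes with at least 0.1 UMI per cell in every library numbered 5910, with members among them. Outside the members, those whose mean r over the 4 libraries with the classical sum was highest were H2-Eb1 (0.17), Ighm (0.17), H2-Ab1 (0.17), Igkc (0.16) and H2-Aa (0.15). H2-Eb1, H2-Ab1 and H2-Aa are MHC class II chains, and Ighm and Igkc are immunoglobulin chains. The median over all genes was near 0, and these cells share a library and a thinned depth, so the values are a description.

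Clustering without these genes gave 7 clusters. Clusters A (7020 cells), D (875) and E (848) came almost wholly from libraries 5 and 6. Clusters B (6839), C (2154) and F (528) came almost wholly from libraries 7 and 8. The proliferation gene Mki67 stood at 352 CPM in D and 328 in F and at most at 24.3 elsewhere. Ccl4 stood at 389 in E against 14.2 in A and 50.8 in D, but also at 359 in B, 287 in C and 185 in F. Cluster G, in which Jchain stood at 3751 CPM, was found in all libraries with 71, 110, 56 and 33 cells, and library 8 was left out of its values for having under 50. Outside G, cluster therefore cannot be told apart from the split of libraries 5 and 6 against 7 and 8. Clusters A, D and E can be compared within libraries 5 and 6, and B, C and F within 7 and 8.

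Cluster G had the highest H2-K1, H2-D1, B2m, H2-T23 and H2-Q7 in every library in which it was measured. H2-K1 stood at 1170, 1122 and 1016 CPM there in libraries 5, 6 and 7, against 518, 560.5 and 394 in the largest cluster of the same library (A, A and B). H2-D1 stood at 826, 806 and 522 against 496, 525 and 242, and B2m at 929.8, 882 and 601 against 627, 639 and 269. H2-Q7 stood out most, at 113, 109.7 and 90.5 against 12.4, 13.2 and 9.07. That was 9.12-fold (log2 3.19, 2.83 to 3.53), 8.31-fold (3.05, 2.75 to 3.34) and 9.97-fold (3.32, 2.93 to 3.69) higher, from 86, 121 and 69 UMIs. H2-T23 was 1.20-fold, 1.19-fold and 1.57-fold of the largest cluster, with an interval that took in 0 on the log2 scale in library 5. Of the related genes, H2-Q6 stood at 26.3, 23.6 and 9.18 in cluster G against 6.07, 6.78 and 5.23 in the largest cluster. The library 7 value in G rests on 7 UMIs. H2-Q4 stood at 11.8, 15.4 and 6.55 against 12.3, 13.5 and 7.92. Nlrc5 was at 3.94, 6.35 and 9.18 against 3.02, 3.64 and 2.91, from 3, 7 and 7 UMIs in G. The peptide transport and loading genes did not all follow. Relative to the largest cluster, Tap1 was 0.98-fold, 0.92-fold and 1.47-fold and Tap2 0.92-fold, 0.97-fold and 0.69-fold in G. Erap1 was 0.56-fold, 1.16-fold and 0.94-fold, and the log2 intervals of Tap1, Tap2 and Erap1 all took in 0. Tapbp was 1.38-fold, 1.36-fold and 0.99-fold, with an interval that took in 0 in library 7. These values hold for clustering at resolution 0.3. In library 5 the highest over the lowest cluster was 2.43-fold for H2-K1, but 1.10-fold and 1.30-fold at resolutions 0.1 and 0.5. Of such values for H2-K1, H2-D1 and B2m in the 4 libraries, 7 stayed and 5 moved at resolution 0.1. At resolution 0.5, 9 stayed and 3 moved. Only clusters of at least 50 cells in a library enter this range, and the level of the G cells themselves at other resolutions is not given.

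The Mki67-high clusters also had more H2-Q7 than the largest cluster of their library. In D it was at 31.7 and 33.9 CPM in libraries 5 and 6, 2.56-fold of A in both. In F it was at 23.1 and 33.6 in libraries 7 and 8, 2.55-fold and 4.38-fold of B. H2-Q6, whose split from H2-Q7 is uncertain, was 3.44-fold and 3.42-fold of A in D. It was 1.46-fold and 2.16-fold of B in F. In F the classical chains were higher as well, H2-K1 at 536 and 581 (1.36-fold and 1.60-fold) and H2-D1 at 375 and 365 (1.55-fold and 1.69-fold). In D they were within 1.10-fold of A. Cells of D and F were deeper, with a median of 16743 and 16258 UMIs against 8197 in A and 9421 in B, and the part of depth was not tested. In cluster E H2-T23 was at 62.4 and 63.3 against 116 and 113 in A, and Erap1 at 32.2 and 27.3 against 16.4 and 17.1. D differed from A in the same directions but by less. H2-T23 was at 83.1 and 80.5 in D, and the log2 ratios of Erap1 in D over A were 0.35 and 0.36. B2m was lower than in A in both clusters, with log2 ratios of -0.33 and -0.35 in D and -0.32 and -0.26 in E. The nonclassical share ran from 7.48% (6.80 to 8.21) in E of library 6 to 11.3% (10.0 to 12.6) in G of the same library.

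**Figure D4:**
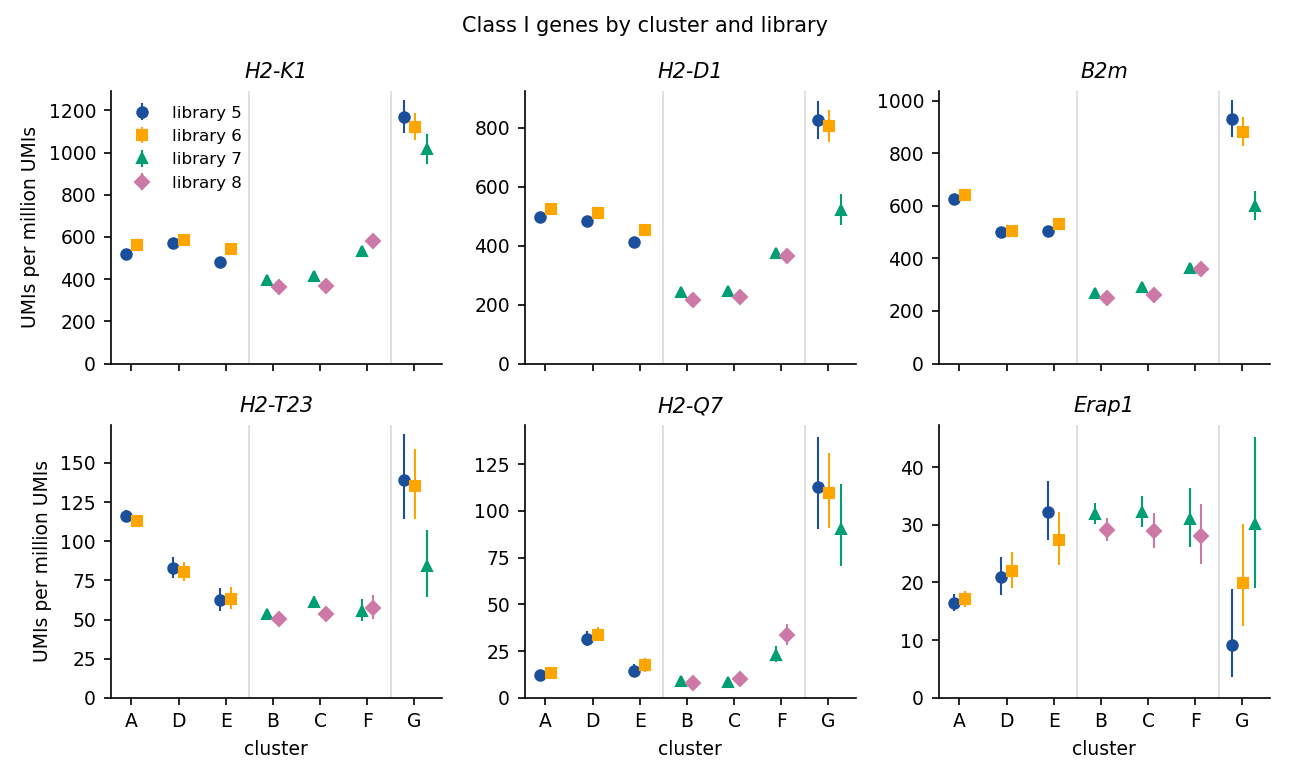
Level of 6 genes by cluster and library, in CPM from 0, with exact Poisson 95% intervals and only clusters of at least 50 cells in a library. Cluster G lies highest for H2-K1, H2-D1, B2m and H2-Q7, and H2-Q7 also rises above the largest cluster in D and F.

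Il10 is a cytokine of regulatory B cells, and cells with an Il10 UMI were compared with cells without one inside each library. They made up 7.48%, 7.45%, 70.3% and 71.6% of libraries 5 to 8 and were deeper, with 12200, 13075, 10754 and 10508 median UMIs against 8566, 8593, 9530 and 9213. H2-K1 differed little, with log2 ratios of -0.02, 0.06 (0.01 to 0.11), -0.00 and -0.07 (-0.12 to -0.02). Its interval took in 0 in libraries 5 and 7. Within the largest cluster H2-K1 was at -0.07, -0.04, -0.06 (-0.11 to -0.01) and -0.08 (-0.14 to -0.02). There the interval took in 0 in libraries 5 and 6. H2-D1 was at -0.14 (-0.21 to -0.08) in library 5 and at -0.05, 0.02 and 0.04, with intervals that took in 0, in libraries 6 to 8. Within the largest cluster of each library H2-D1 was at -0.10, -0.13, -0.05 and 0.04, with intervals below 0 in libraries 5 and 6. B2m was at -0.19 (-0.25 to -0.13) and -0.16 (-0.21 to -0.10) in libraries 5 and 6. In libraries 7 and 8 B2m was at -0.02 and -0.03, with intervals that took in 0. Within the largest cluster B2m was at -0.10, -0.10, -0.07 (-0.13 to -0.01) and -0.03, and the interval took in 0 in library 8 alone. H2-T23 was lower in Il10-containing cells of library 5 (-0.41, -0.56 to -0.27) and library 6 (-0.43, -0.57 to -0.30), and higher in those of library 7 (0.25, 0.14 to 0.37), while in library 8 (0.11, -0.03 to 0.25) the interval took in 0. H2-Q7 was higher in those of library 6 (0.41, 0.15 to 0.67), and its interval took in 0 in libraries 5 (0.08), 7 (-0.12) and 8 (-0.17). Within the largest cluster alone it was at 0.65 (0.12 to 1.14) in library 5 and at 0.34, 0.12 and -0.01 in libraries 6 to 8, where the intervals took in 0. Within the largest cluster the H2-T23 ratios were -0.16 (-0.37 to 0.04), -0.30 (-0.49 to -0.11), 0.29 (0.14 to 0.43) and 0.13 (-0.04 to 0.31). Il10 stood at 53.1 and 31.6 CPM in cluster E against 7.11 and 6.31 in A, in libraries 5 and 6. In D, which like E had lower H2-T23 than A, Il10 stood at 14.2 and 15.4. In G, where H2-T23 was not lower, Il10 stood at 28.9 and 24.5. A link between these levels was not tested. Cells of 1 library are not replicates, so no p is given.

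Other class I genes pointed the same way as the heavy chains. Of 13 listed, 12 were in the matrix and 8 had 100 UMIs, and all 8 had ratios below 0 in the 4 cross pairs. The interval of H2-Q10 took in 0 for 7 over 5 and 7 over 6, and the other 7 had intervals wholly below 0. The share of all genes with ratios or intervals below 0 is not given here, so these counts only describe the list. The lower and upper quartiles of all genes tested were -0.51 and 0.72 for 7 over 5, and -0.60 and 0.61 for 8 over 6. Of the 8, 4 or 5 were past 2-fold lower, beside 15.2% to 16.4% of all genes, and 0 past 2-fold higher, with medians of -1.02, -1.19, -1.11 and -1.30. H2-T22 was at 38.6, 39.6, 32.9 and 28.0 CPM in libraries 5 to 8, H2-M3, which presents formylated peptides, at 32.4, 37.0, 12.7 and 12.7, H2-Q4 at 12.8, 14.1, 8.78 and 5.74, and H2-Q6 at 9.14, 10.1, 5.34 and 5.36. Cd1d1, which presents lipids to NKT cells and is named here after its values were seen, had the lowest ratios of the list, at 5.26, 6.20, 0.204 and 0.263 CPM.

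The chaperones Calr, Canx and Pdia3, which also fold many other proteins, had log2 ratios of 0.46 to 0.83 in the cross pairs. Of all genes tested, 68.6% to 80.9% had a ratio at or below that of these chaperones. Tapbpl, a tapasin relative that edits peptides, had -0.75 to -1.02 and passed 2-fold in 1 pair. Among 5 immunoproteasome and PA28 genes, Psmb8 stood at 531, 555, 342 and 343 CPM and Psmb10 at 128, 125, 66.2 and 62.2. Psme1 was at 372, 359, 341 and 356 and Psme2 at 201, 199, 285 and 266. Psmb9, which lies beside Tap1 and is named after its values were seen, had ratios of -1.40 to -1.62. The constitutive subunits Psmb5, Psmb6 and Psmb7, which the immune subunits replace, were all higher, at 0.67 to 0.89. Beside this, 77.1% to 82.5% of all genes tested had a ratio at or below that of these subunits. Of 16 regulators, 6 were past 2-fold lower and 0 past 2-fold higher in each of the 4 cross pairs, beside 15.2% to 16.4% and 13.7% to 16.1% of all genes. In the same pairs 7 or 8 of the 16 had intervals wholly above 0 and 8 had intervals wholly below it. No share of all genes with such intervals is given beside these counts, which only describe the list. Irf8 was at 537, 560.3, 203 and 196 CPM, Irf2 at 166, 168, 73.4 and 78.3, and Nfkb1 at 81.6, 78.4, 145 and 130.3. Irf1, Irf9, Rfx5 and Rfxank, named after their values were seen, were the others past 2-fold lower. Besides Nfkb1, the genes Rfxap, Nfya, Nfyb, Relb, Rela and Creb1 had intervals wholly above 0 in all 4 cross pairs. The ratios of Rfxap, for example, were 0.36, 0.39, 0.44 and 0.47.

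**Figure D5:**
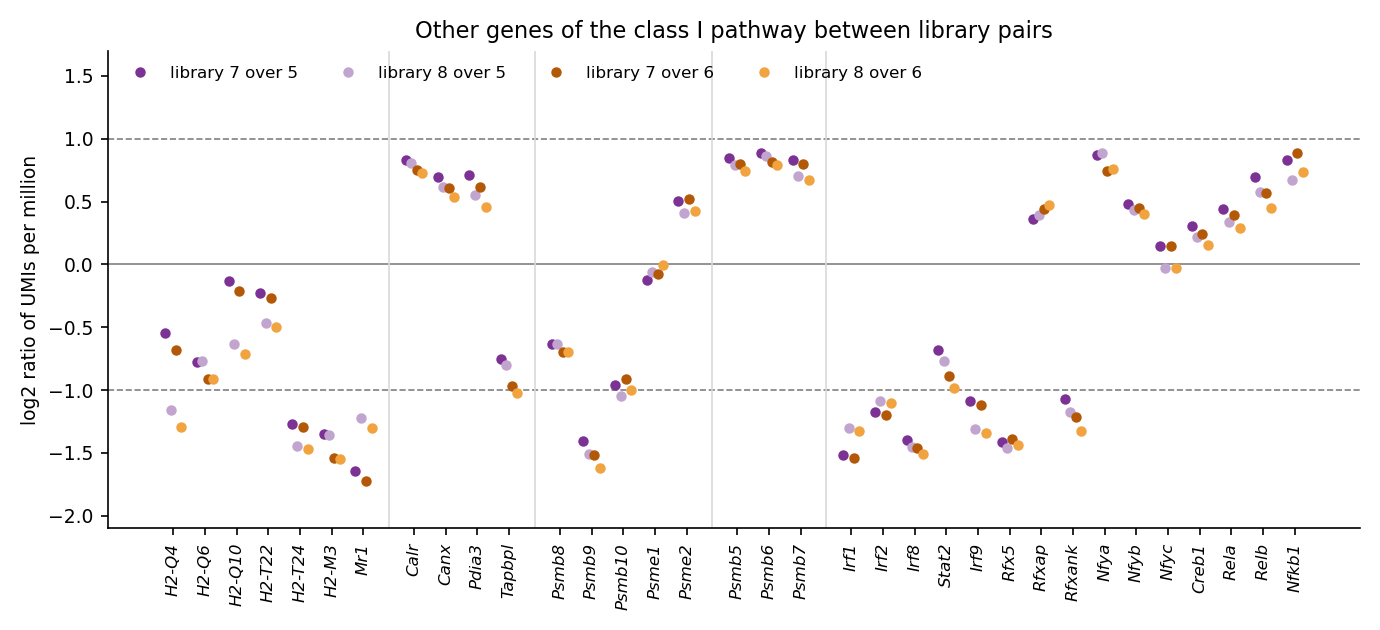
Log2 ratio of CPM for the other genes of the class I pathway with at least 100 UMIs, in the 4 library pairs that set 7 or 8 against 5 or 6, with dashed lines at 2-fold. Cd1d1 (-4.32 to -4.92) lies off the scale, 1 regulator is not shown, and from left to right the groups are other class I genes, chaperones, immunoproteasome and PA28, constitutive proteasome and regulators.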

How the data were processed

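Cells of 4 samples were profiled with Chromium Single Cell 3′ v3 libraries. The deposited matrix holds UMI counts per gene and barcode, which the authors made with bcl2fastq and Cell Ranger 3.1.0 on mm10 and combined across libraries. It has 35989 columns for 19920 barcodes. The barcodes were set on the last 19920 columns in order, and the other 16069 columns were read only to check that placement: the mean level of the 500 most abundant genes shifted more at the start of the first library and between libraries 6 and 7 than at nearly all positions (percentiles 99.5 and 100), and less at the joins of libraries 5 and 6 (79.6) and 7 and 8 (91.1). This placement is a limit on every value.

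Counts were summed per library and divided by its UMIs. Ratios of 2 libraries have exact conditional binomial intervals, levels exact Poisson and shares exact Clopper-Pearson ones, all at 95%. These cover counting error only. Called means at least 2-fold with an interval that leaves out 1, among genes with at least 100 UMIs. The method was tested on simulated Poisson counts, which hold no variation between cells or libraries beyond counting error. That test therefore cannot show how the intervals behave under such variation. No doublet caller was run. Clusters came from Seurat 5.3.0 (2000 variable genes less the listed ones, 20 components, 20 neighbours, resolution 0.3), and TMM factors from edgeR 4.0.16. Python 3.11.15, NumPy 2.4.6, SciPy 1.17.1 and R 4.3.3 were used. Gene positions and exons came from GENCODE M21 (GRCm38).

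No library was matched to a sample, so no test between the groups, and no replicate error, is given. Named genes are the 10 members, up to 4 genes of each pathway list by total UMIs, and the 5 genes most like the classical sum. Genes of the pathway lists named beyond these, such as Cd1d1, Psmb9 and several regulators, were named after their values were seen. The values of 1 regulator are not reported here. Members and lists were chosen with earlier results of these data known.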

Additional observations from a re-analysis of the deposited data

How the results depend on the processing

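No paired analysis was possible because no library was matched to a sample or a replicate number. The members at least 2-fold lower for library 7 over 5 numbered 4 with TMM scaling, 4 with mitochondrial, ribosomal protein and immunoglobulin genes left out of the total, and 0 as UMIs per cell, against 2 as reported; the cause was not tested. TMM brought the all-gene median of that pair from 0.16 to 0.04. With a 1.5-fold call, 5 members were lower and 1 higher in each of the 4 cross pairs, beside 22.9% to 25% of all genes lower and 25.7% to 30% higher. Counting all class I heavy chains of the lists, the nonclassical share was 17.9%, 17.4%, 16.2% and 15.9% in libraries 5 to 8. In thinned cells it was 10.3% in library 6. Pooled over libraries it was 9.84%, and 9.54% to 10.1% when each library was left out in turn. Keeping cells with 500 genes, setting no mitochondrial limit, or leaving out the 5% of cells with the most UMIs changed no count of members past 2-fold. The highest over the lowest cluster changed at other resolutions for some values. In library 5 it went from 2.43 to 1.10 (resolution 0.1) and 1.30 (resolution 0.5) for H2-K1, and the cause was not tested. Over H2-K1, H2-D1 and B2m in the 4 libraries, 5 values moved and 7 stayed at resolution 0.1. At resolution 0.5, 3 moved and 9 stayed. No member called past 2-fold changed direction under the scaling and cell filter alternatives run. Such a change was hardly possible, so its absence gives no support. The called members had log2 ratios of -1.02 or lower. Over these alternatives, the all-gene median for 7 over 5 ran only from -0.03 to 0.24.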
